A study of Mus musculus with 17 samples.

Results

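The RNA of 40 genes that run mitosis and its spindle checkpoint, of 28786 genes on the arrays, was followed through 17 mammary tumors of CUX1 transgenic mice. The 40 were picked by name for their roles, at a time when earlier results of these data were known, and each was read from the brightest probe that carried its name or RefSeq accession. The tumors came from FVB mice with a transgene driven by MMTV regulatory sequences, 9 with p75-CUX1 and 8 with p110-CUX1, and no tumor or gland without a transgene was analysed here. Epithelial tumor cells were cut from frozen sections by laser, and their amplified RNA was compared on 2-color arrays with an amplified universal mouse reference RNA that was the same on every array. A value is therefore log2 of tumor over reference, with 0 meaning as bright as the reference.

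By the labels, the p75 tumors were 4 adenosquamous carcinomas, 3 solid carcinomas, 1 adenomyoepithelioma and 1 adenocarcinoma, and the p110 tumors were 6 solid carcinomas, 1 adenomyoepithelioma and 1 adenoma. The study also placed the tumors in a high-Wnt cluster (3 p75 and 2 p110 tumors), a medium-Wnt cluster (3 p75 and 2 p110) and a low-Wnt cluster (3 p75 and 4 p110) from 19 Wnt genes on these arrays, none of which is among the 40. All adenosquamous carcinomas were p75 tumors, 3 of the 5 high-Wnt tumors were adenosquamous and 6 of the 7 low-Wnt tumors were solid, so the splits overlap and share tumors. The p75 and p110 arrays were scanned in different years, and transgene and scan year cannot be told apart. Ages were not given in the sources used here.

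At the entry into mitosis CDC25 phosphatases activate CDK1 bound to cyclins, and the kinetochores that form on centromeres capture microtubules of the spindle. As long as a kinetochore is unattached, the checkpoint proteins of the Mad and Bub families hold back CDC20 and the anaphase-promoting complex, so that securin and cyclin B are not yet destroyed. Most of these genes are transcribed late in the cell cycle, and their RNA is therefore a familiar readout of the share of dividing cells. CUX1 is a homeodomain transcription factor, p110 and p75 are its shorter forms, and spindle checkpoint genes are among its known targets, which is the reason to look at them here.

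Promoters of late cell cycle genes often carry a cell cycle genes homology region (CHR) and CCAAT boxes. The 250 bases before the RefSeq start (build GRCm38.p6, each 5′ to 3′ along its gene's strand) are shown for Mki67, the marker to which the other genes are compared below, for Ccnb2, Ube2c and Cdc20, which followed it, and for Aurka and Cdc25b, which did not. Capitals mark the CHR letters TTTGAA or TTCGAA and the letters CCAAT, on either strand.
Mki67 (chr7:135716380-135716629, minus strand): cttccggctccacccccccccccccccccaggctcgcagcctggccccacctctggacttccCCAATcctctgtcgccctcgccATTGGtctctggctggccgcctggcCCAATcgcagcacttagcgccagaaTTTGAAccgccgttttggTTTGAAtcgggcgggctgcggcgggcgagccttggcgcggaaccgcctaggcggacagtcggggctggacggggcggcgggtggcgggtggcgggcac
Ccnb2 (chr9:70421555-70421804, minus strand): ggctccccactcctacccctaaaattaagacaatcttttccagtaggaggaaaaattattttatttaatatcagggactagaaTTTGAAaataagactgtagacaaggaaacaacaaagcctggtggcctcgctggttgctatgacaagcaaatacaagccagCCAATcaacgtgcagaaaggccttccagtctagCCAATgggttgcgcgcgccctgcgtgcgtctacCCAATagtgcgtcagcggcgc
Ube2c (chr2:164769679-164769928, plus strand): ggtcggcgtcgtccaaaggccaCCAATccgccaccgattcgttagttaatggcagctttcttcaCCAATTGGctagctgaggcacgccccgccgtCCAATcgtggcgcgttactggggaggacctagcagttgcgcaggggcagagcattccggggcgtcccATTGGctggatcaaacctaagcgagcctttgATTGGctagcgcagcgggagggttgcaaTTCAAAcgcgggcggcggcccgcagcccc
Cdc20 (chr4:118437344-118437593, minus strand): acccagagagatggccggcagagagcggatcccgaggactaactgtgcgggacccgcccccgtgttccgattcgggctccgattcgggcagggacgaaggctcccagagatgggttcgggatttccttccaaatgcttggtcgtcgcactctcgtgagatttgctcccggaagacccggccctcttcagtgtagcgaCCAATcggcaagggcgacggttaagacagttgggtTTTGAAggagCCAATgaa
Aurka (chr2:172370571-172370820, minus strand): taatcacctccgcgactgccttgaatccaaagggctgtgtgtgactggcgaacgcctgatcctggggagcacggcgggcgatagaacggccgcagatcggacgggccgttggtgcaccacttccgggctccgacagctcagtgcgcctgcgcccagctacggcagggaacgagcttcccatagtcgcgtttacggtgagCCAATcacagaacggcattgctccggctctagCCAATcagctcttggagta
Cdc25b (chr2:131186698-131186947, plus strand): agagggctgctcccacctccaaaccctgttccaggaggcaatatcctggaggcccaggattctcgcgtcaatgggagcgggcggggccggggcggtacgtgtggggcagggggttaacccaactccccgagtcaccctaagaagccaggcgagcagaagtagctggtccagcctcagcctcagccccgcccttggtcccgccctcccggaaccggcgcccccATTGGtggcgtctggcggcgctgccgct

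RefSeq promoters were matched for 32 of the 40 genes, which have 35 promoters between them. The letters CCAAT stood within the 250 bases before the start in 26 of the 35 promoters (74.3%) against 33.8% of all 32851 promoters of this length. The CHR letters stood there in 13 of 35 (37.1%, against 17.1% of all), and in the window that also takes in the 50 bases after the start they stood in 26 of 35 (74.3%, against 19.2% of all). The Mki67 promoter holds 2 CHR and 3 CCAAT matches, and Ube2c holds 1 CHR and 6 CCAAT matches. Aurka with 2 CCAAT and Cdc25b with 1 CCAAT have no CHR letters before the start, though both have them in the window with the first transcribed bases. ATCAAT or ATCGAT, letters bound by CUX1 in its Cut repeat and homeodomain sites, stood in none of the 35 promoters before the start and in 2 (5.71%, Bub3 and Kif4) with the 50 bases after it, against 7.4% and 8.4% of all promoters. These are letter matches in short windows, not measured binding sites. Genes with and without the CHR letters overlapped in their likeness to Mki67, the measure given below. Of 22 other genes with a promoter and measured in at least 9 tumors, the 7 with CHR letters before the start had values of Pearson's r from 0.279 (Kif11) to 0.932 (Ccnb2) with a median of 0.780, and the 15 without them from -0.605 (Cdc25b) to 0.962 (Birc5) with a median of 0.668.

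The tumors differed in how bright they were. The share of probes with a tumor color well above background ran from 31.9% to 65.6% (median 40.8%) in p75 and from 21.5% to 55.2% (median 34.1%) in p110 tumors (exact two-sided permutation test, p = 0.221). In p110-98, p110-225 and p110-374 the reference was 13.3, 9.05 and 12.1 times as bright as the tumor at the 95th percentile of signal, against at most 4.14 elsewhere. One tumor went against its label: p110-121, called a solid carcinoma, had the lowest value of all 17 tumors for each of 7 epithelial markers, with Krt8 at -4.24, Krt18 at -4.82, and Krt5 and Krt14 at -0.11 and -0.17, and only 2 of the 7 were well above background. Its 8 immune markers were all measured, with a median of 1.98, and results by transgene are also given without it. In dissected tissue, fewer cells of a type and less RNA per cell cannot be told apart.

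The mitotic genes lay below the reference. The median over the 17 tumors was negative for 38 of the 40 genes, against 41.3% of all genes, and 18 of the 40 were below the reference in every tumor. The count of 18 has no share over all genes beside it. A gene counts as measured in a tumor where the scanning software marked the tumor's color as well above background on each of its arrays. By this mark, 49.2% of all genes measured in at least 9 tumors had a negative median. Of the 18 genes always below the reference, 15 were measured as often. Among the 40, 15 genes were measured in every tumor and 30 in at least 9. The other 10 were Ttk, Ndc80, Spc25, Cdk1, Cdc25c, Kif2c, Kif23, Anln, Espl1 and Top2a. Ttk, a kinase that starts checkpoint signaling, was measured in 1 tumor, and Ndc80, a kinetochore subunit that grips microtubules, in none, so their values near 0 say little of their RNA.

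**Figure D1:**
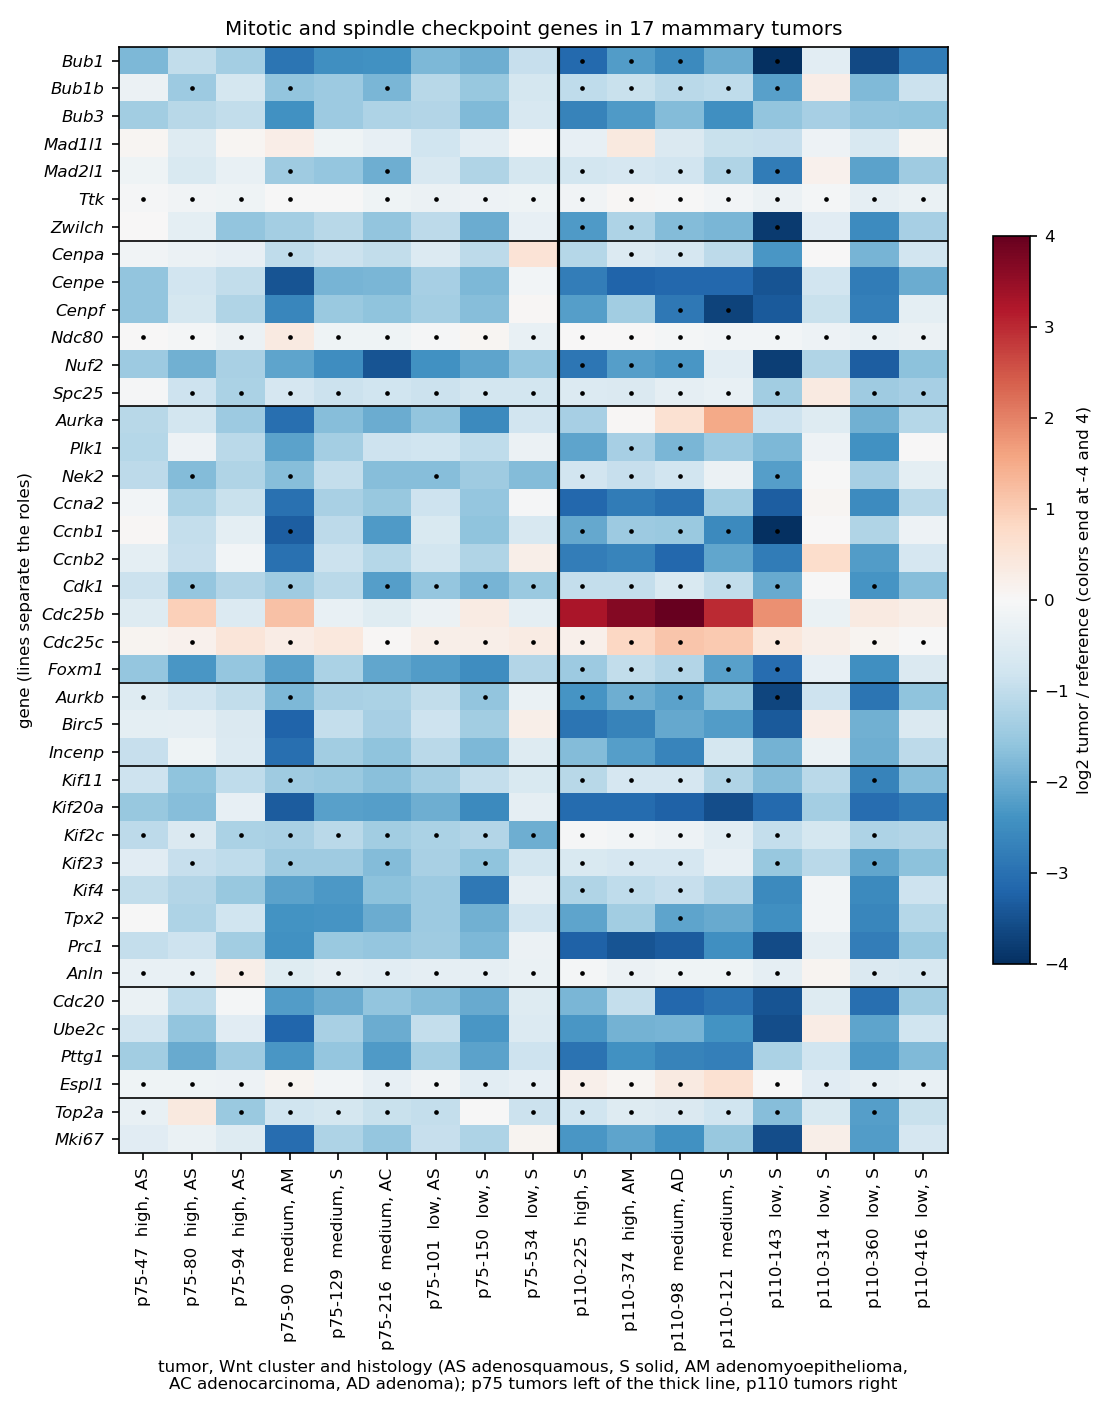
Log2 tumor over reference for the 40 genes (rows, grouped by role) in the 17 tumors (columns, p75 left and p110 right of the thick line). Blue is below and red above the reference, and a dot marks a tumor color not well above background; most cells are blue, p110-143 and p110-360 are the darkest columns of p110 tumors, and the Cdc25b row is red in several p110 tumors.

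The tumors fell along a wide range of mitotic RNA, which cut across the labels. The median over the 40 genes was highest in p110-314, a low-Wnt solid carcinoma, at -0.24, then in p75-534, another low-Wnt solid carcinoma, at -0.45, and in p75-47, a high-Wnt adenosquamous carcinoma, at -0.48. It was lowest in p110-143 at -2.26 and p110-360 at -2.16, both low-Wnt solid carcinomas, and in p75-90, a medium-Wnt adenomyoepithelioma, at -2.12. The low-Wnt cluster thus held both ends of the range, from -2.26 to -0.24 with a middle value of -1.06, while high-Wnt tumors ran from -1.59 to -0.48 with -0.94 in the middle and medium-Wnt tumors from -2.12 to -1.20 with -1.33. Over the 30 genes measured in at least 9 tumors the medians were lower or the same in every tumor. They ran from -2.92 in p110-143 to -0.27 in p110-314 in low-Wnt tumors, from -2.14 in p110-225 to -0.80 in p75-47 in high-Wnt tumors and from -2.37 in p75-90 to -1.42 in p75-129 in medium-Wnt tumors.

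Among the 30 genes measured in at least 9 tumors, p110-314 held the highest value for 12 (40%, against 7.11% of the 11226 genes measured as often). It held a value among the 3 highest for 22 (73.3%, against 17.9%). For p75-534 these counts were 7 (23.3%, against 6.12%) and 20 (66.7%, against 18.3%). The tumor color of p110-314 was also the brightest beside the reference, which was 0.66 times as bright at the 95th percentile of signal. More of the 40 genes were measured there (37) than in any other tumor, against 15 in p110-98. The part of this brightness in the counts was not tested. At the other end, p110-143 held the lowest value for 18 of the 30 (60%, against 10.4%), of which 10 were measured in that tumor and 8 were not well above background there. A list of 23 S-phase genes, active in the replication that comes before mitosis, had its lowest median in the same tumor, at -2.71, and its highest in p75-47, at -0.25. The adipocyte markers, with medians led by p75-101 (6.76), p110-225 (5.03), p75-150 (4.29), p110-143 (4.27) and p110-360 (2.80), were high in both of the p110 tumors at the low end and also in p75-101, whose 40 genes had a median of -1.06. The endothelial markers had their highest medians in p110-143 (3.33) and p110-360 (2.85), against at most 2.18 in the other tumors, and p110-360 held the highest value of Cdh5, Kdr, Tek and Emcn among the 17. The part of either list in the mitotic values was not tested.

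The tumors moved most in Cdc25b, Ccnb2, Birc5, Ccnb1 and Ccna2, the 5 genes of largest SD among the 30. Ccnb2, a B-type cyclin, had an SD over tumors of 1.21. Its value was 0.71 in p110-314 and 0.25 in p75-534, the only tumors above the reference, then -0.12 in p75-94, -0.38 in p75-47, -0.69 in p110-416, -0.74 in p75-101, -0.85 in p75-129 and -0.91 in p75-80. It went on to -1.13 in p75-216 and -1.21 in p75-150, and then to -2.09 in p110-121, -2.22 in p110-360, -2.64 in p110-374, -2.78 in both p110-143 and p110-225, -2.97 in p75-90 and -3.15 in p110-98. All p75 tumors but p75-90 lay above -1.3, and of the p110 tumors p110-314 and p110-416 did.

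Birc5, or survivin, the subunit that brings the chromosomal passenger complex to chromosomes, had an SD of 1.17. It was 0.27 in p110-314 and 0.25 in p75-534, -0.35 in p75-80, -0.39 in p75-47, -0.58 in both p75-94 and p110-416, -0.82 in p75-101, -0.95 in p75-129, -1.33 in p75-216 and -1.38 in p75-150. The rest lay far below, at -1.92 in p110-360, -2.04 in p110-98, -2.22 in p110-121, -2.68 in p110-374, -2.92 in p110-225, -3.21 in p75-90 and -3.35 in p110-143. The order was close to that of Ccnb2, with p75-90 again the one p75 tumor among the lowest.

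Ccnb1, the main partner of CDK1, had an SD of 1.15 and ran lower, to -4.02 in p110-143, -3.31 in p75-90, -2.54 in p110-121, -2.27 in p75-216 and -2.03 in p110-225. It was -1.61 in p75-150, -1.48 in p110-98, -1.45 in p110-374, -1.19 in p110-360, -1.05 in p75-129, -0.95 in p75-80, -0.64 in p75-534, -0.61 in p75-101, -0.38 in p75-94 and -0.20 in p110-416, and only p110-314 at 0.03 and p75-47 at 0.04 reached the reference. It was not measured in p75-90, p110-98, p110-121, p110-143, p110-225 or p110-374, so 4 of its 5 lowest values rest on tumor signals not well above background, and in p110-143 the other probes gave -3.6 and -2.96. The other 4 genes were measured in all 17 tumors. Ccna2, the cyclin of S phase and of early mitosis, had an SD of 1.13, with the lowest values in p110-143 (-3.29), p110-225 (-3.15), p75-90 (-3.00), p110-98 (-2.99), p110-374 (-2.80) and p110-360 (-2.53). Its other tumors were p75-150 (-1.54), p75-216 (-1.50), p110-121 (-1.40), p75-129 (-1.31), p75-80 (-1.27), p110-416 (-1.07), p75-94 (-0.91), p75-101 (-0.82), p75-47 (-0.10), p75-534 (-0.05) and p110-314 (0.08).

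Cdc25b, the phosphatase that starts CDK1 activation, had the largest SD, 1.66, and the opposite pattern. It stood at 4.45 in p110-98, 3.68 in p110-374, 3.27 in p110-225, 2.97 in p110-121 and 1.82 in p110-143, then at 1.19 in p75-90 and 0.96 in p75-80. The other tumors lay between -0.55 and 0.35, among them p110-360 at 0.35, p110-416 at 0.23 and p110-314 at -0.27, and p75-150 at 0.32, p75-101 at -0.23, p75-129 at -0.31, p75-534 at -0.38, p75-216 at -0.48, p75-47 at -0.52 and p75-94 at -0.55. The 3 highest tumors are the 3 with a dim tumor color. Repeat arrays of one tumor differed in this gene with an SD of 1.06. That SD was 0.87 for Ccnb2, 0.68 for Birc5, 0.52 for Ccna2 and 0.49 for Ccnb1, and over the 30 genes it ran from 0.12 for Mki67 to 1.09 for Foxm1, with 0.98 for Aurka. The second probe of Cdc25b, 195 bases upstream, stayed between -2.44 and -0.94 in all tumors and was not well above background in p75-90 or in the 4 highest p110 tumors. The 2 probes thus gave different accounts of Cdc25b.

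**Figure D2:**
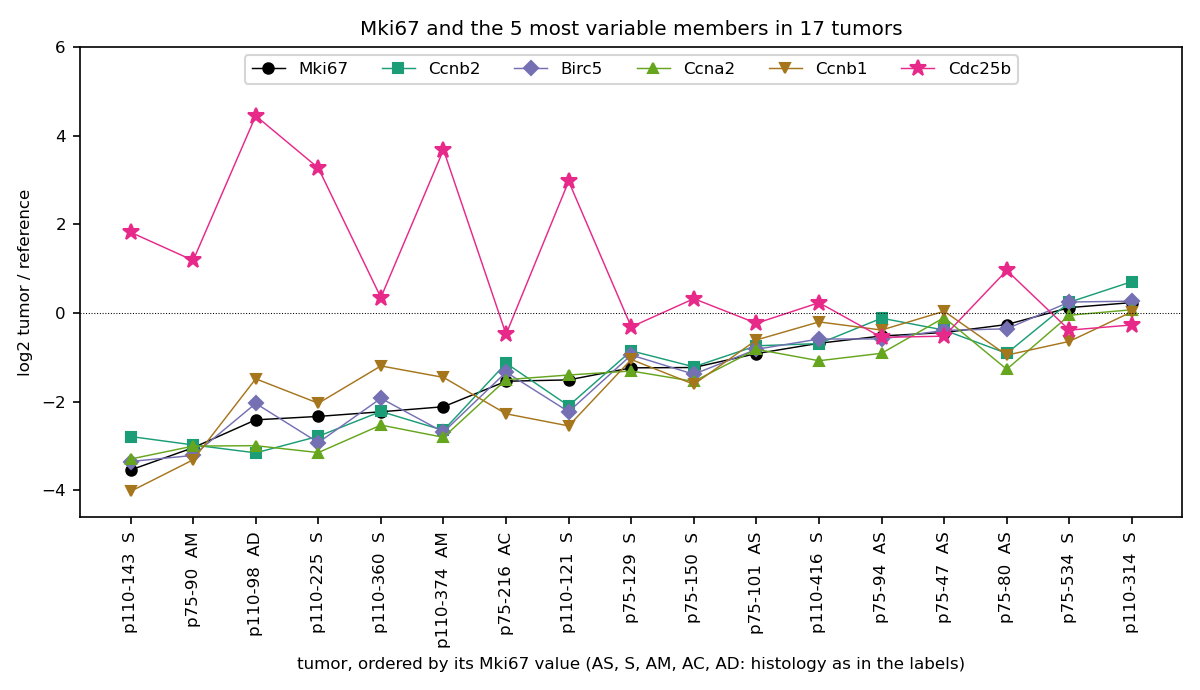
Log2 tumor over reference (vertical axis) of Mki67 and the 5 genes of largest SD in each of the 17 tumors, ordered from the lowest to the highest Mki67 value (horizontal axis). Ccnb2, Birc5, Ccna2 and Ccnb1 climb with Mki67 from p110-143 to p110-314, and Cdc25b, which peaks at 4.45 in p110-98, does not.

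Mki67, the nuclear proliferation marker, ran from -3.54 in p110-143 to 0.24 in p110-314 with a median of -1.23. This is the reading of its brighter probe, measured in all 17 tumors with an SD of 0.12 between repeat arrays. A second, dimmer probe 4421 bases upstream was measured in 10 tumors and did not follow it, with an r of 0.398 between the probes over all tumors and -0.0895 over those 10, and with 0.27 in p75-90 and 0.75 in p75-150 where the first read -3.04 and -1.23. The values of r that follow hold for the brighter probe, and with the second the median r of the other 29 genes was 0.257 in place of 0.790. Over the 17 tumors Pearson's r with Mki67 was 0.962 for Birc5, 0.943 for Ccna2, 0.932 for Ccnb2, 0.918 for Cenpe (a kinetochore motor), 0.912 for Prc1 (which bundles the central spindle), 0.894 for Ube2c (the ubiquitin carrier of the anaphase-promoting complex), 0.878 for Aurkb (the kinase of the passenger complex) and 0.872 for Bub1 (a checkpoint kinase). Aurkb was measured in 10 and Bub1 in 13 of the tumors, and the other 6 genes in all. The tumors share one reference and the values come from the same arrays, and r is given as a description with no test. Over the 435 pairs of the 30 genes the median r was 0.583, with 393 pairs positive, against 0.00171 over all pairs of the 11226 genes measured as often. It was 0.667 in the 9 p75 tumors and 0.637 in the 8 p110 tumors.

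A few genes stood off from the rest. Cdc25b had an r of -0.605 with Mki67, negative within p75 (-0.497) and within p110 tumors (-0.549). Aurka, the kinase of spindle poles, had an r of 0.917 with Mki67 in p75 tumors and 0.0636 in p110 tumors, where it reached 1.52 in p110-121 and 0.60 in p110-98. Nek2, a centrosome kinase, showed the reverse, 0.125 in p75 and 0.866 in p110 tumors, and Bub3, a checkpoint adaptor with other duties in the cell, had 0.890 and 0.265. Whether r differs between the transgenes was not tested. Mad1l1, the checkpoint protein that recruits Mad2 to kinetochores, varied little (SD 0.40). It had an r of 0.230 over all tumors, -0.252 in p75 and 0.435 in p110 tumors.

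**Figure D3:**
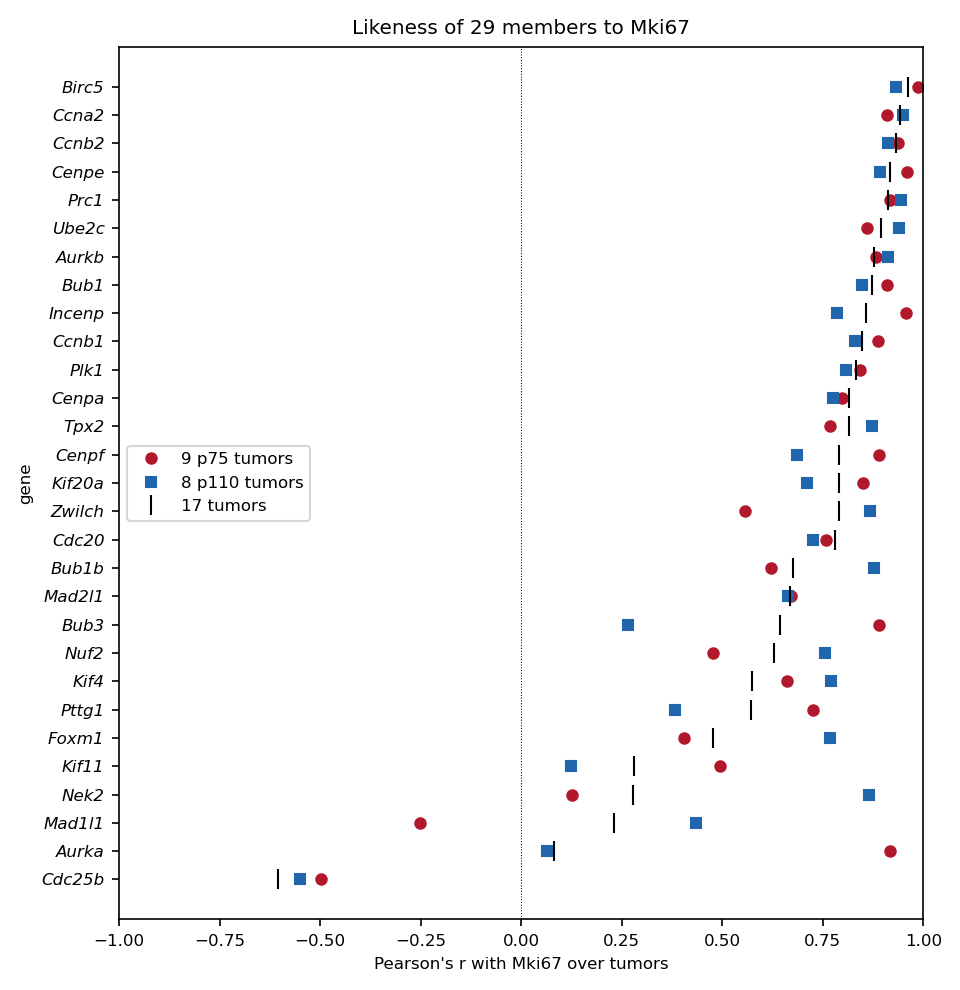
Pearson's r with the brighter Mki67 probe (horizontal axis) of the other 29 genes measured in at least 9 tumors (vertical axis), over all 17 tumors (bars), the 9 p75 tumors (red) and the 8 p110 tumors (blue). Birc5 leads at 0.962, Aurka, Bub3, Nek2 and Mad1l1 have red and blue points far apart, and Cdc25b alone is below 0 over all 17 tumors.

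The first split asked whether tumors that differ in the RNA of Wnt genes also differ in mitotic RNA. None of the 40 genes passed an adjusted p of 0.05 between the 5 high-Wnt and the 7 low-Wnt tumors (limma, Benjamini-Hochberg over all genes), where 0.233% of all genes were called, and the smallest adjusted p was 0.265, for Kif23. Before adjustment 3 of the 40 (7.5%) had a p under 0.05, all higher in high-Wnt tumors, against 12% of all genes in either direction and 6.65% in that one. No gene had groups without overlap, against 1.7% of all genes. The difference had a positive sign, higher in high-Wnt tumors, for 32 of the 40 (80%, against 55.1% of all genes), with a median of 0.23 against 0.02 over all genes. This sign of the median turned with median centering in place of loess (-0.40), in the tumor color without the reference (-0.12), and in solid carcinomas alone (-0.14), of which 1 was high-Wnt. The squamous markers had medians from -0.07 to 1.88 in high-Wnt and from -0.26 to 0.03 in low-Wnt tumors, basal markers 3.41 to 5.83 and 0.36 to 3.19, and adipocyte markers 0.09 to 5.03 and -0.06 to 6.76, and their part was not tested.

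Kif23, a motor of the central spindle needed for cytokinesis, was -0.44 in p75-47, -0.61 in p110-225, -0.66 in p110-374, -0.93 in p75-80 and -1.01 in p75-94. In the low-Wnt tumors it ran from -2.09 through a median of -1.52 to -0.73. The groups overlapped, and the difference of 0.70 (95% confidence interval 0.16 to 1.23) had an exact two-sided permutation p of 0.0114 and, as given, an adjusted p above the threshold. It was measured in 2 of the 5 and 4 of the 7 tumors, and the difference was -0.32 in the tumor color without the reference.

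Kif2c, a kinesin that takes microtubules apart at centromeres, was -0.04 in p110-225, -0.12 in p110-374, -0.58 in p75-80, -1.05 in p75-47 and -1.27 in p75-94, measured in none of them, and ran from -1.95 through -1.18 to -0.70 in low-Wnt tumors, measured in 2. The difference was 0.60 (0.02 to 1.18, limma adjusted p = 0.397, exact permutation p = 0.0543). Ttk differed by 0.13 (0.01 to 0.25, limma adjusted p = 0.355, exact permutation p = 0.0328) with no tumor of either group measured, from -0.19, -0.14, -0.13, -0.05 and 0.06 in high-Wnt tumors to values between -0.36 and -0.07 in low-Wnt tumors. Kif2c and Ttk are thus seen at or near background in most of these tumors. In the tumor color without the reference their differences were 0.036 and 0.007.

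The largest differences had wide intervals. Cdc25b differed by 1.11 (-0.86 to 3.07). Cdc20, which activates the anaphase-promoting complex, was -0.08, -0.28, -0.95, -1.02 and -1.84 in high-Wnt tumors and ran from -3.45 through -1.74 to -0.50 in low-Wnt tumors, with a difference of 0.97 (-0.10 to 2.05). Mad2l1, its checkpoint inhibitor, measured in 3 of the 5 and 6 of the 7 tumors, lay between -0.72 and -0.18 in high-Wnt and between -2.79 and 0.16 in low-Wnt tumors, with a difference of 0.75 (-0.09 to 1.59). Pttg1, or securin, had the opposite sign, -0.54 (-1.25 to 0.17). Mki67 differed by 0.04 (-1.27 to 1.36). None of these 5 passed the test. Of the other genes of anaphase onset, Ube2c differed by 0.03 and Espl1, measured in no tumor of either group, by 0.24.

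Within the transgenes the high-Wnt minus low-Wnt difference had a median of 0.20 in p75 tumors (3 against 3, 33 genes or 82.5% higher, against 49.4% of all genes) and 0.21 in p110 tumors (2 against 4, 25 or 62.5% higher, against 55.1%). In p75 tumors the groups did not overlap for 1 gene, Mad2l1 (2.5%, against 14.8% of all genes), and in p110 tumors for 7 (17.5%, against 30.6%), where the smallest exact p the design allows is 0.0667. The 7 were Bub3, Ndc80, Cdc25b, Kif2c, Kif23, Pttg1 and Espl1, of which Ndc80 and Espl1 were measured in none and Kif2c and Kif23 each in 2 of these p110 tumors, both low-Wnt. A test of whether the cluster difference itself differed between the transgenes called none of the 40, with 0.0626% of all genes called. Before adjustment 1 of the 40 (2.5%) had a p under 0.05, against 12.7% of all genes. It was Cdc25b, with a difference of 0.06 in p75 and 2.94 in p110 tumors (limma adjusted p = 0.177 for the interaction). The high-Wnt p110 tumors are p110-225 and p110-374, both of dim tumor color.

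The second split, by transgene, also called none of the 40 at an adjusted p of 0.05, with 0.504% of all genes called, and none of the 40 had groups without overlap, against 0.208% of all genes. The smallest adjusted p was 0.131, for Cdc25b. Before adjustment 10 of the 40 had a p under 0.05 (25%, against 13.8% of all genes). The values were higher in p75 tumors for 6 of the 10 (15% of the 40, against 5.69% of all genes) and lower for 4 (10%, against 8.09%), and the difference had a positive sign for 27 of the 40 (67.5%, against 50.2% of all genes), with a median of 0.32 against 0.00. Without p110-314 the test called 4 of the 40 (Cenpe, Cdc25b, Aurkb and Prc1), 10% of them, in a fit that called 1084 genes in all (3.77%) in place of 145. Without p110-121 it called none, against 0.375% of all genes, and the median was 0.29. Median centering called 2 (Cenpa and Aurkb, 5%), against 4.18% of all genes, and moved the median to 1.46 with 34 positive (against 56.2% of all genes) and the median over all genes at 0.07. Scaling the arrays to the same spread called 1 (Aurkb, 2.5%), against 0.233% of all genes. The tumor color without the reference called 5 (Bub3, Mad1l1, Aurka, Kif20a and Prc1, 12.5%), against 5.62% of all genes, with a median of 0.52. The signals processed by Feature Extraction called none, against 1.13% of all genes, and gave a median of 0.70.

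The kinases, cyclins, CDC25 phosphatases and the transcription factor Foxm1 split in both directions, with 4 of 10 higher in p75 tumors and a median of -0.24. All 4 were among the 7 kinases and cyclins, whose median was 0.42. Cdc25b ran from -0.55 through -0.31 to 1.19 in p75 tumors and from -0.27 through 2.40 to 4.45 in p110 tumors, so 5 p110 tumors lay above every p75 tumor and the other 3 among them. The difference was -2.06 (SE 0.61, interval -3.37 to -0.76, exact permutation p = 0.00646), it was -1.02 without the 3 dim tumors, and the second probe gave -0.26. Aurka ran from -3.00 through -1.56 to -0.75 in p75 and from -1.91 through -0.67 to 1.52 in p110 tumors, a difference of -1.21 (SE 0.44, -2.15 to -0.28, limma adjusted p = 0.214). It was -0.93 without p110-121 and turned to 0.10 with median centering. Nek2 ran from -1.74 through -1.69 to -0.96 and from -2.19 through -0.77 to -0.02, a difference of -0.64 (SE 0.25, -1.16 to -0.12, limma adjusted p = 0.244, measured in 6 and 4 tumors), which also turned to 0.10 with median centering.

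The 3 genes of the passenger complex were all higher in p75 tumors by sign, with a median of 0.96. Aurkb ran from -1.79 through -1.0 to -0.28 in p75 and from -3.66 through -2.03 to -0.84 in p110 tumors and was measured in 6 of 9 and 4 of 8. The groups overlapped, and the difference was 1.08 (SE 0.32, 0.39 to 1.76, limma adjusted p = 0.137, exact permutation p = 0.00469). It was 1.15 without p110-121, 1.10 within solid carcinomas and -0.79 in the tumor color without the reference. Birc5 differed by 0.96 (-0.13 to 2.04) and Incenp, the scaffold of the complex, by 0.33 (-0.50 to 1.15), and neither had an unadjusted p under 0.05.

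Among central spindle genes and motors 4 of 8 were higher in p75 tumors, with a median of 0.06. Prc1 ran from -2.41 through -1.44 to -0.22 in p75 and from -3.57 through -3.01 to -0.35 in p110 tumors, and p110-314 at -0.35 and p110-416 at -1.49 were the p110 tumors inside the p75 range. The difference was 1.24 (SE 0.42, 0.35 to 2.13, limma adjusted p = 0.183). It was 0.78 without the 3 dim tumors and 2.59 with median centering. Kif20a, a motor that works beside Prc1 in cytokinesis, ran from -3.32 through -1.94 to -0.32 and from -3.53 through -3.08 to -1.37, a difference of 1.13 (SE 0.39, 0.30 to 1.95, limma adjusted p = 0.192). Apart from p110-314 the p110 tumors lay at or below -2.84 in this gene. Kif2c, measured in no p75 and 2 p110 tumors, differed by -0.63 (-1.05 to -0.21, limma adjusted p = 0.15). Its difference was -0.06 in the tumor color without the reference and -1.36 with the signals processed by Feature Extraction.

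Among centromere genes, 5 of 6 were higher in p75 tumors by sign (median 0.33), and Cenpe was the one with an unadjusted p under 0.05. It ran from -3.45 through -1.58 to -0.11 in p75 and from -3.45 through -2.97 to -0.75 in p110 tumors, a difference of 1.14 (SE 0.43, 0.23 to 2.04, limma adjusted p = 0.228). The difference was 0.44 with the mean of all its probes, the others measured in 1 tumor or none, and 2.49 with median centering. The lowest p75 and the lowest p110 tumor were alike, and the groups parted in the middle of their ranges.

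The spindle checkpoint genes, the reason given above for the comparison, showed 6 of 7 differences of positive sign and a median of 0.25, and none passed the test. Bub3 ran from -2.43 through -1.23 to -0.65 in p75 and from -2.67 through -1.67 to -1.33 in p110 tumors, a difference of 0.55 (SE 0.23, 0.05 to 1.05, limma adjusted p = 0.299), and a second probe, also measured in all 17 tumors, gave 0.44. The probes disagreed otherwise, since the second one lay between -0.66 and 0.90 and above the reference in 12 tumors, and its high-Wnt minus low-Wnt difference was 0.21 against -0.30. Zwilch, which carries dynein and Mad proteins to kinetochores, ran from -1.99 through -1.11 to 0.02 and from -3.82 through -1.79 to -0.46, a difference of 0.86 (SE 0.40, 0.02 to 1.70, limma adjusted p = 0.345), measured in 9 and 4 tumors. Bub1 ran from -2.92 through -1.81 to -0.93 and from -5.02 through -2.68 to -0.44, with a difference of 0.87 (-0.15 to 1.89, limma adjusted p = 0.46). It was measured in 9 and 4 tumors, and the -5.02, in p110-143, is a signal not well above background, without which the difference was 0.54.

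For the other checkpoint genes the groups lay on top of each other. Mad2l1 ran from -1.95 through -0.69 to -0.18 in p75 and from -2.79 through -0.98 to 0.16 in p110 tumors (difference 0.25, -0.52 to 1.01) and was measured in 7 and 3. Without p110-143, where it was not measured, the difference of Mad2l1 was 0.018, and it was 0.53 without the 3 dim tumors and 1.09 with median centering. Its value is also the median of the 7 checkpoint genes given above. Mad1l1 ran from -0.79 through -0.18 to 0.27 and from -0.92 through -0.45 to 0.40 (0.18, -0.23 to 0.58). Without p110-143 the difference of Mad1l1 was 0.098. Bub1b, the BubR1 kinase of the checkpoint complex, ran from -1.82 through -1.44 to -0.25 and from -2.16 through -1.02 to 0.27 (-0.11, -0.72 to 0.50), was measured in 6 and 3 tumors, and its sign turned under 4 of the alternatives. Ttk, near background, differed by 0.01 (-0.11 to 0.13). The intervals of Mad2l1, Bub1, Bub3 and Zwilch reach past 1 on the log2 scale. Those of Mad1l1 and Bub1b do not in this fit, but median centering gave 1.41 and 0.70 for these genes.

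**Figure D4:**
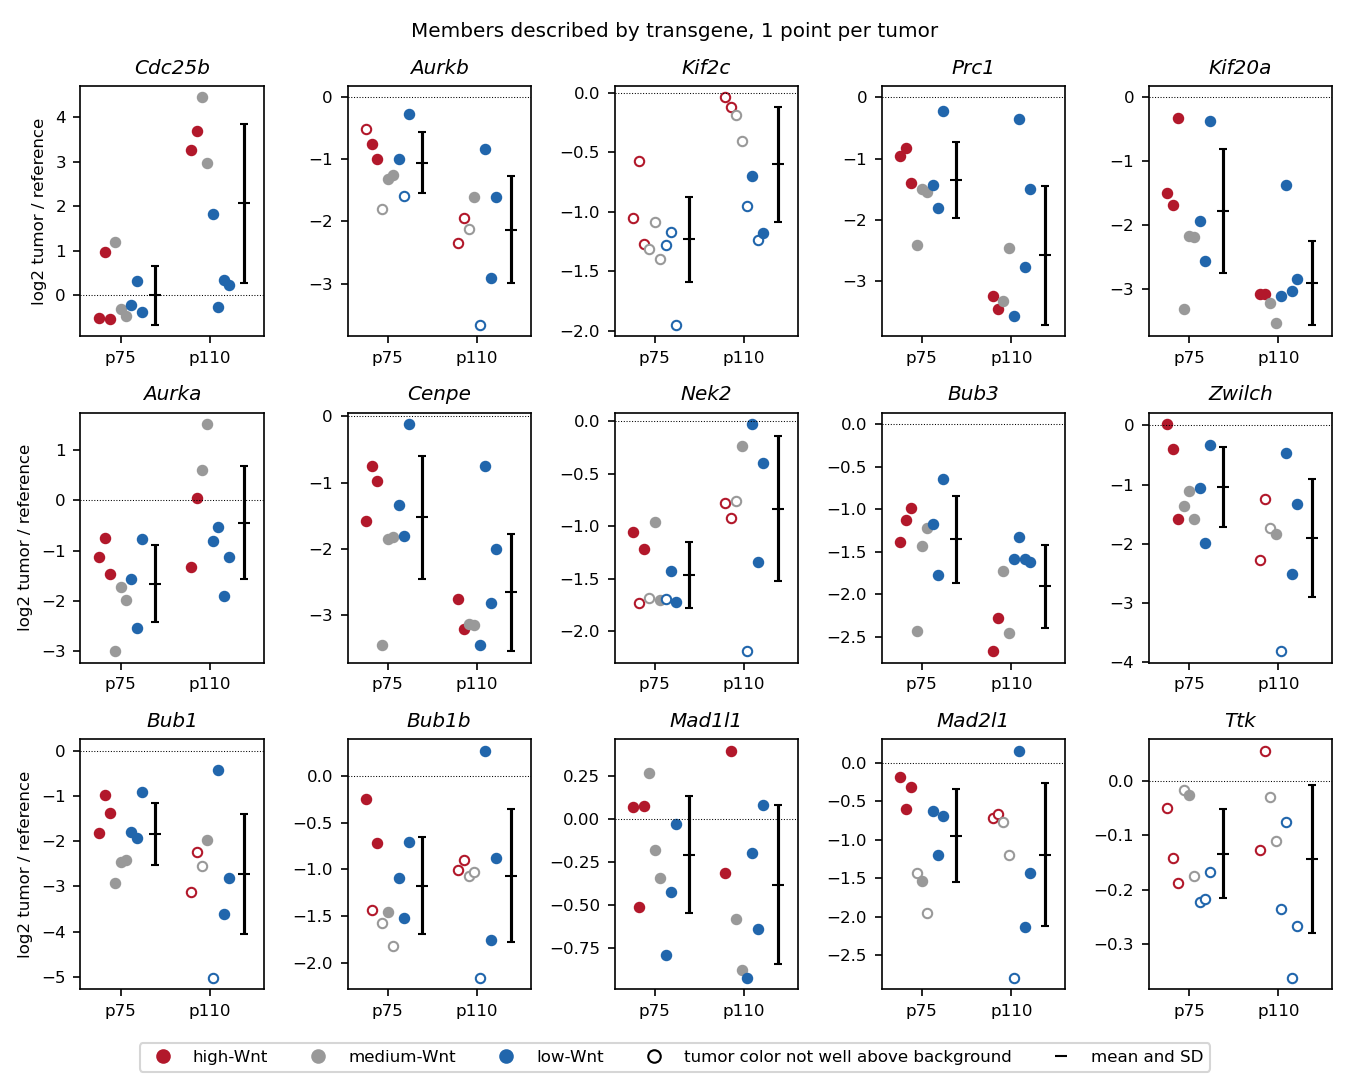
Log2 tumor over reference (vertical axes differ) in p75 and p110 tumors for the 15 genes described by transgene, with 1 point per tumor in the color of its Wnt cluster, open where the tumor color was not well above background, and the mean with its SD. The groups overlap in all 15 genes; p110-314 is the highest blue p110 point in Prc1, Kif20a and Bub1, and the difference of Aurka, Nek2, Aurkb, Bub1b and Ttk changed sign under at least 1 alternative.

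Within solid carcinomas alone (3 p75 against 6 p110) the median difference over the 40 genes was 0.35 with 28 higher (70%, against 50.6% of all genes), and without the 3 dim tumors (9 against 5) it was 0.24 with 28 higher (against 52.1%). All 8 immune markers had lower means in p75 tumors. Their list median ran from -0.16 to 0.25 there and from -0.67 to 1.98 in p110 tumors. Of the 8, 1 passed the test, where 0.504% of all genes were called. The 1.98 is that of p110-121, and without it the p110 medians reached 0.97 and 6 of the 8 markers were lower in p75 tumors, all but Ptprc and Lyz2. Their part in the mitotic values was not tested. The S-phase genes had the same sign as the mitotic genes, 21 of 23 higher in p75 tumors (against 50.2% of all genes). Their median was 0.72, and none of them passed the test.

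The third split set the 4 adenosquamous carcinomas against the 9 solid carcinomas, which differ in that the former contain squamous elements. None of the 40 genes passed at an adjusted p of 0.05, where 0% of all genes were called, and before adjustment none had a p under 0.05, where 5.5% of all genes did. No gene of the 40 had groups without overlap, against 0.417% of all genes, and the smallest adjusted p was 0.875. The sign was positive for 33 of the 40 (82.5%, against 47.6% of all genes), with a median of 0.38 against -0.01. The tumor medians over the 40 genes ran from -1.06 to -0.48 in adenosquamous carcinomas and from -2.26 to -0.24 in solid carcinomas, so the adenosquamous tumors lay inside the range of the solid ones. Over the 30 genes measured in at least 9 tumors they ran from -1.13 to -0.80 and from -2.92 to -0.27. The basal and myoepithelial markers had medians from 3.19 to 5.83 in adenosquamous and from -0.17 to 3.41 in solid carcinomas, and the squamous markers from -0.07 to 1.88 and from -0.26 to 0.06, and their part was not tested.

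Cdc20 had the largest difference. It was -0.08 in p75-94, -0.28 in p75-47, -1.02 in p75-80 and -1.74 in p75-101, and it ran from -3.45 through -1.98 to -0.50 in solid carcinomas (difference 1.19, -0.02 to 2.39, exact permutation p = 0.0783). Kif20a was -0.32 in p75-94, -1.51 in p75-47, -1.69 in p75-80 and -1.94 in p75-101 and ran from -3.53 through -2.84 to -0.37 (1.09, -0.02 to 2.20, exact permutation p = 0.0811). Mad2l1 lay between -0.63 and -0.18 in adenosquamous and between -2.79 and 0.16 in solid carcinomas (0.85, -0.04 to 1.75). Cdc25b had the largest difference of opposite sign, -0.97 (-2.61 to 0.66). Within p75 tumors (4 against 3) the median over the 40 genes was 0.15 with 31 higher (77.5%, against 47.7% of all genes), and Mad2l1 was the 1 gene without overlap (2.5%, against 5.06%).

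**Figure D5:**
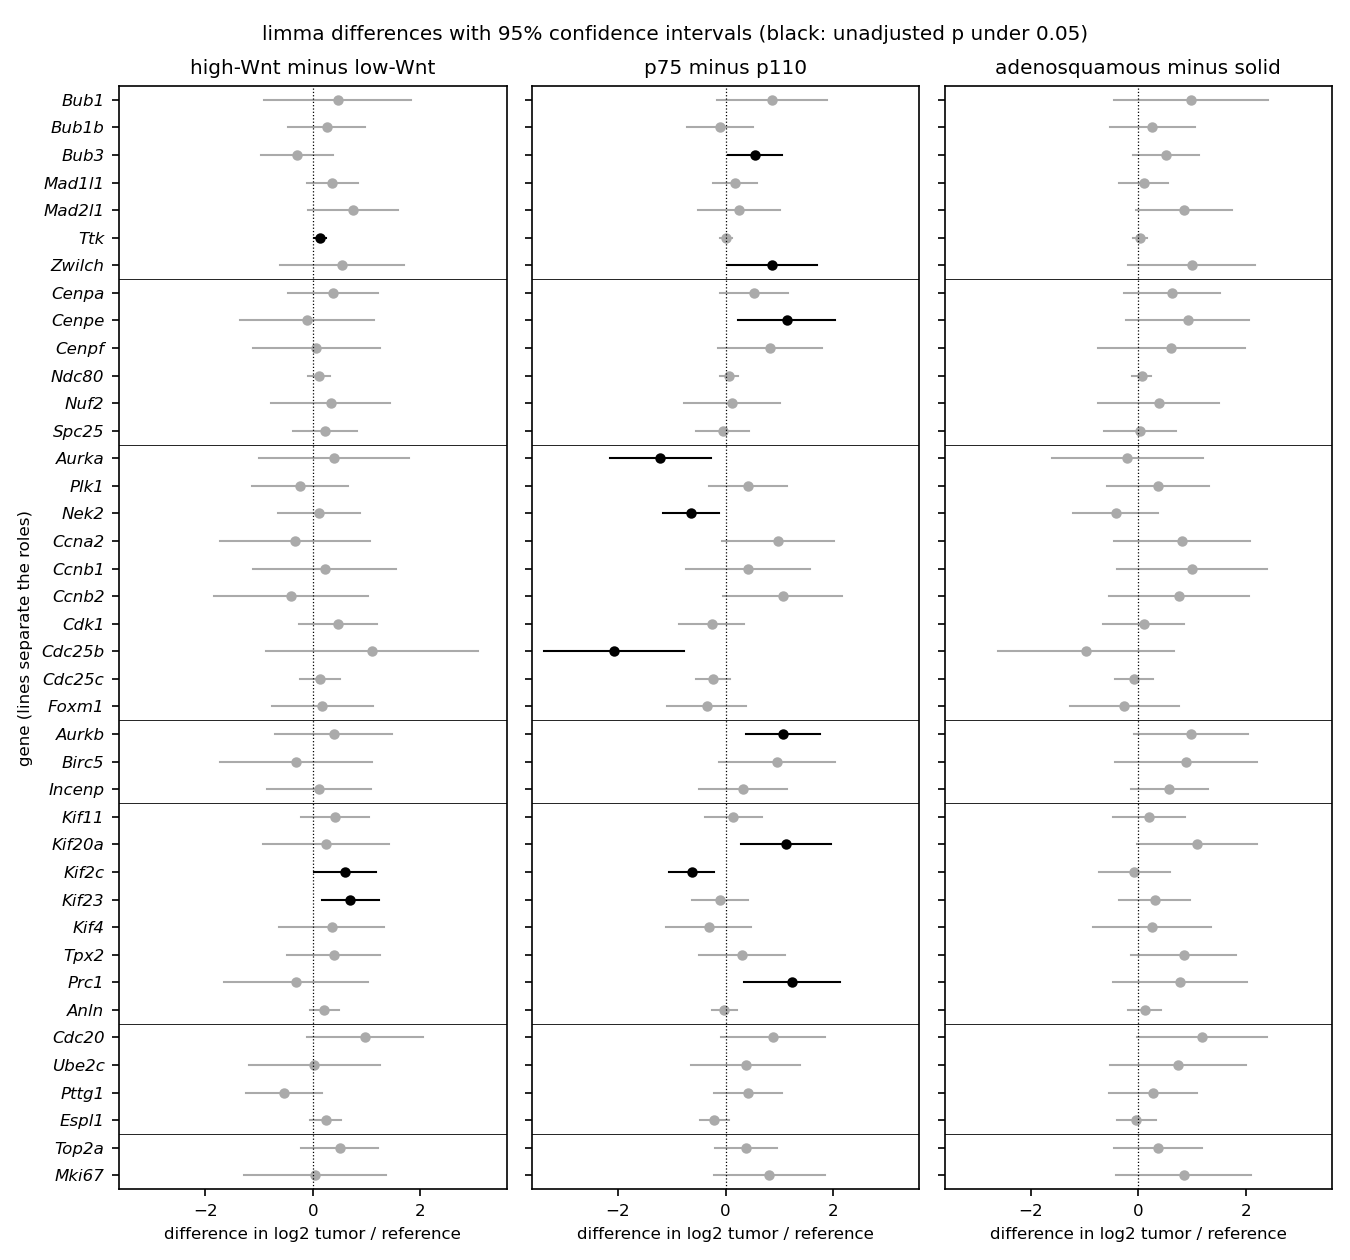
Differences in log2 tumor over reference (horizontal axes) with 95% confidence intervals from limma for the 40 genes (vertical axis, grouped by role) in the 3 splits; black marks an unadjusted p under 0.05, and none passed after adjustment. Most points lie right of 0, with 32, 27 and 33 of 40 positive; for high-Wnt against low-Wnt the median changed sign with median centering, in the tumor color without the reference and in solid carcinomas alone.

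Beyond the 40 genes, other genes of the cell cycle were followed in 6 lists. By transgene, where 0.504% of all genes were called, 1 of 32 other kinetochore and checkpoint genes passed the test (Ska2). So did 1 of 15 genes of the anaphase-promoting complex and its partners (Cdc23). None passed of 15 cohesin and condensin genes, 18 other spindle and cytokinesis genes, 16 other regulators of mitotic entry and 23 S-phase genes. Between high-Wnt and low-Wnt tumors, where 0.233% of all genes were called, 1 of the 16 entry regulators passed (Lin9) and no gene of the other lists, and between adenosquamous and solid carcinomas none passed.

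Cdc23, a scaffold subunit of the anaphase-promoting complex, ran from -0.33 through 0.51 to 1.14 in p75 tumors and from -0.71 through -0.36 to 0.12 in p110 tumors and was measured in all 17. The difference was 0.83 (SE 0.16, limma adjusted p = 0.0311), and the groups overlapped. With the mean of all its probes it was 0.40 and no longer passed, with median centering it was 2.13, and 19 of 32 alternatives kept the call. Ska2, a subunit of a complex that couples kinetochores to microtubules, ran from -0.15 through -0.01 to 0.14 and from -0.66 through -0.54 to -0.21 with no overlap, a difference of 0.45 (SE 0.07, limma adjusted p = 0.0102). It was measured in no p75 tumor and 1 p110 tumor, and in the tumor color without the reference the difference was -0.29.

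Lin9, a subunit of the complex that turns on late cell cycle genes, was lower in high-Wnt tumors. It was -0.49 ± 0.21 (SD, n = 5), between -0.74 and -0.22, in high-Wnt and 0.32 ± 0.24 (SD, n = 7), between 0.13 and 0.80, in low-Wnt tumors, with no overlap and a difference of -0.81 (SE 0.14, limma adjusted p = 0.0367). It was measured in 3 of the 5 and in all 7 tumors. Of 31 alternatives, 12 kept its adjusted p under 0.05, and it was 0.682 with median centering. The difference was -0.27 with the mean of all its probes and -2.11 with the signals processed by Feature Extraction.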

How the data were processed

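Amplified RNA of microdissected epithelial cells from 17 tumors was hybridized with an amplified mouse reference on 38 2-color Agilent arrays, 2 per tumor with dyes swapped and 4 for p110-143 and p110-360. The authors deposited scanner files of intensity values, read with Feature Extraction 9.5.3.1 and not normalized. The deposited table of log2 ratios by the authors was remade from them to within 4.98e-08. Their headers name 15 slides and 10 scan days. Probe distances are those of the array design (mm7).

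Here mean signals were corrected by normexp (offset 50) and normalized by loess in limma 3.58.1 (R 4.3.3), with controls and outlier spots (0.545%) left out. Ratios were turned to tumor over reference and averaged over spots and arrays, and the brightest probe stood for a gene. Of 41174 probes, 55.7% were named by RefSeq accession and the rest by the files, which list 4 of the 40 genes under older names. Groups were compared with lmFit and eBayes and Benjamini-Hochberg adjustment over 28786 genes, on the histology and transgene in the labels and the clusters drawn in the paper. Single genes were also compared by exact two-sided permutation of tumors, and steps were tested on simulated data. Arrays carry no counts, and the number of tumors limits the precision. The members, lists and alternatives were chosen with earlier results of these data known. Genes were described where their unadjusted p was under 0.05, at most 10 per split, or where they belong to the checkpoint in the transgene split. Values per tumor are given for the 5 most variable genes and otherwise as lowest, median and highest in groups over 5. Genes named for the size of a difference, or for their likeness to Mki67, were chosen after their values were seen. Nothing says whether tumors share a litter or a cage.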

Additional observations from a re-analysis of the deposited data

Results flagged for a closer look

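Of 42 sets of values tested for a lone sample, where chance alone would give about 1 in 20, 1 had a tumor far from the others: Kif20a in the 8 p110 tumors, with -1.37 in p110-314 and the nearest tumor at -2.84. Without p110-314 the difference of Kif20a between p75 and p110 tumors was 1.35.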

How the results depend on the processing

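Between high-Wnt and low-Wnt tumors, and between adenosquamous and solid carcinomas, no alternative called any of the 40 genes, and leaving out each tumor moved the median difference between 0.10 and 0.41 and between 0.23 and 0.50. By transgene, 2 genes were called with median centering (Cenpa and Aurkb), which moved the median difference to 1.46, 1 with arrays scaled to the same spread (Aurkb) and 5 in the tumor color without the reference (Bub3, Mad1l1, Aurka, Kif20a and Prc1). Leaving out each tumor gave 0 to 4 calls and medians between 0.11 and 0.48, with all 4 calls without p110-314. Signs turned for Kif23 (-0.32 between high-Wnt and low-Wnt tumors), Aurkb (-0.79) and Ska2 (-0.29) in the tumor color without the reference, for Aurka (0.10), Nek2 (0.10) and Ttk (-0.10) with median centering, and for Bub1b at 0.56 with the signals processed by Feature Extraction, 0.70 with median centering, and 0.11 in the tumor color without the reference. With 1 tumor left out, Bub1b lay between -0.27 (without p110-143) and 0.082 (without p110-314) and Ttk between -0.021 (without p110-360) and 0.038 (without p110-374). The cause was not tested. Genes called by transgene numbered 1204 with median centering, 1618 in the tumor color without the reference and 46 to 1084 with each tumor left out. Cdc23 kept its call under 19 of 32 alternatives and Ska2 under 27 of 31. Leaving out p110-98, p110-225 and p110-374 was chosen after seeing the data. Scan year could not be a block for the transgenes, since it is the same split, and a fit on the 2 groups alone is the same fit there. No paired analysis was possible because the mouse numbers differ between groups. Weak tumor signals in 10 of the 40 genes limit what can be said of them.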
